A study of Mus musculus with 2 samples.

Results

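Liver sinusoidal endothelial cells clear macromolecules from portal blood with endocytic receptors, and 8 genes of these cells are described here: the receptors Stab1, Stab2, Lyve1, Mrc1, Fcgr2b, Gpr182 and Clec4g, and Oit3, which codes for a zona pellucida-domain protein and is counted with the receptor genes for short. They were taken by name from a list, which was chosen with earlier results of these data known. All 8 were among the 19059 genes of the count tables. Their levels were set out in endothelial cells, in Kupffer cells and other macrophages, and in the remaining liver cells, and then compared between 2 single-cell libraries. Both libraries came from livers of 27-week-old mice fed HF/HSD, a diet rich in fat and sugar, from 7 weeks of age. One was labelled AEG-1DMAC, for mice without AEG-1 (the gene Mtdh) in myeloid cells, and one AEG-1fl/fl, for mice with floxed AEG-1 alleles. The AEG-1DMAC mice had been bred by crossing AEG-1fl/fl mice of C57BL/6/J background with mice whose Cre recombinase is driven by the Lyz2 (LysM) gene, so both labels carry the floxed alleles and the deletion is meant for macrophages and neutrophils, not for endothelial cells. Each label had 1 library, and whether a library pools several livers was not given in the sources used here, so no difference between the libraries has a replicate check, and none was tested. All intervals in the text are 95% intervals of counting error only.

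Sinusoidal endothelial cells are fenestrated, lack a continuous basement membrane and take up soluble waste, while Kupffer cells, the macrophages of the same sinusoids, take up particles and dying cells. The receptors work by binding a ligand at the surface, entering through clathrin-coated pits and releasing it in endosomes for lysosomal breakdown. Several are known from both cell types, whereas others are used as endothelial markers.

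Assays of this kind count probes ligated on the RNA of fixed cells, and a gene's count depends on its own probes, so levels are compared for 1 gene between cells and never between genes. The level of a gene is its summed counts in a set of cells per 1000000 counts of that set (CPM). Cells needed 100 detected genes or more and no more than 10% of counts from mitochondria, which kept 2571 of 2581 cells in the library labelled AEG-1DMAC and 3508 of 3535 in the library labelled AEG-1fl/fl, with 79483780 and 90081981 counts and medians of 12746 and 7682 counts per cell. The libraries shared 10 barcodes, none with identical profiles, and 4 of 4 Y-linked genes had counts in both. Mtdh, the deleted gene, went against the labels in macrophages, at 117 CPM in the library labelled AEG-1DMAC and 36.6 CPM in the library labelled AEG-1fl/fl, and at 126 and 26.7 CPM in the macrophage-like clusters, while in the endothelial gate it stood at 69.5 and 72.6 CPM. In hepatocyte-like cells Mtdh had 62.9 and 59.5 CPM, and in stellate cell-like cells 95.2 and 95.3 CPM. A probe outside the deleted exons would not show the deletion, which bears on a missing decrease and not on a higher level. Where the probes lie was not given in the sources used here, and the cause of the higher level was not tested. Whether the labels of the libraries were exchanged was not tested, and an exchange would turn every direction between them, so each library is called by its label only.

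Cells were taken as endothelial when they held at least 2 counts of Egfl7, Ushbp1 and Ptprb, at least 2 per 10000 counts, and at least 4 times the corresponding sum of Siglec1, Tbxas1 and Fyb, and as macrophages by the mirror rule. The endothelial gate held 415 cells (16.1% of those kept) in the library labelled AEG-1DMAC and 489 (13.9%) in the library labelled AEG-1fl/fl, and the macrophage gate held 323 (12.6%) and 803 (22.9%). Both marker sets were present in 53 and 68 cells, which were left out of both gates. A clustering made without the 8 genes and the 6 gate genes placed 306 and 369 of the endothelial-gated cells in 1 endothelial-like cluster. The other 109 and 120 gated cells were fewer but held most of the counts, since the cluster held 38.6% and 40.0% of the gate's counts. All 23 measured genes of a general endothelial list (Cdh5, Pecam1, Kdr and the like) had counts in both gates, with a sum of 3541 and 4993 CPM in the endothelial gate and 431 and 334 CPM in the macrophage gate. Hepatocyte RNA was high outside hepatocytes: 40 of 40 hepatocyte genes had counts in the endothelial gate, at 89.5% of their summed level in hepatocyte-like cells in the library labelled AEG-1DMAC and at 72.6% in the library labelled AEG-1fl/fl (74.0% and 58.0% in the endothelial-like cluster, 56.2% and 40.7% in the macrophage gate).

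The genes lie on 6 chromosomes of mm10 (GRCm38), with limits from the GENCODE annotation. The stabilins are large scavenger receptors for hyaluronan, modified lipoproteins and phosphatidylserine. Stab1 (ENSMUSG00000042286) spans chr14:31139013-31168641 on the minus strand, and Stab2 (ENSMUSG00000035459) spans chr10:86841198-87008025 on the minus strand. Mrc1 (ENSMUSG00000026712), the mannose receptor, spans chr2:14229392-14332057 on the plus strand, and Fcgr2b (ENSMUSG00000026656), the inhibitory Fc receptor that binds immune complexes, spans chr1:170958617-170976547 on the minus strand. Lyve1 (ENSMUSG00000030787), a hyaluronan receptor shared with lymphatic vessels, spans chr7:110850607-110863239 on the minus strand. Oit3 (ENSMUSG00000009654), a secreted zona pellucida-domain protein, spans chr10:59422958-59441778 on the minus strand. Gpr182 (ENSMUSG00000058396), an atypical chemokine receptor, spans chr10:127747276-127751732 on the minus strand. Clec4g (ENSMUSG00000074491), the C-type lectin LSECtin, spans chr8:3707064-3720651 on the minus strand.

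Promoter sequences from RefSeq (GRCm38.p6) were held for 5 of the 8 genes. The 250 bases before the start site, on the strand of the gene, are shown for Clec4g and Stab2, whose ratio differed most between the libraries among 5 ratios computed, and for Mrc1 and Fcgr2b, which were ordered oppositely along macrophage state. Capitals mark GGAA on either strand, the core of binding sites of ETS factors, a family used by both endothelial cells and macrophages.
Clec4g, chr8:3720652-3720901: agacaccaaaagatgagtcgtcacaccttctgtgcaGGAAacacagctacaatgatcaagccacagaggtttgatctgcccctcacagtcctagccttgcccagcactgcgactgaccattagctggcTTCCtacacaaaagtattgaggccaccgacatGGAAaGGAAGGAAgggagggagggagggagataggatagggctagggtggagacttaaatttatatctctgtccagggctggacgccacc
Stab2, chr10:87007943-87008192: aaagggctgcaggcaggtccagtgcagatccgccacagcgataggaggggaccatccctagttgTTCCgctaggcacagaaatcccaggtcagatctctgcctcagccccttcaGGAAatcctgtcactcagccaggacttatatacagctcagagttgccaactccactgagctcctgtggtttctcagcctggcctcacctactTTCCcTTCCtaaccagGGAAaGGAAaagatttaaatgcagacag
Mrc1, chr2:14229164-14229413: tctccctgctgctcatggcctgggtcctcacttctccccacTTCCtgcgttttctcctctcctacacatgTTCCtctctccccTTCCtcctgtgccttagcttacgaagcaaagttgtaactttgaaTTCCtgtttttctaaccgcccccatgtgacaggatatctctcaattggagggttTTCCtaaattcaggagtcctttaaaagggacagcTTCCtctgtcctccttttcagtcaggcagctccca
Fcgr2b, chr1:170976072-170976321: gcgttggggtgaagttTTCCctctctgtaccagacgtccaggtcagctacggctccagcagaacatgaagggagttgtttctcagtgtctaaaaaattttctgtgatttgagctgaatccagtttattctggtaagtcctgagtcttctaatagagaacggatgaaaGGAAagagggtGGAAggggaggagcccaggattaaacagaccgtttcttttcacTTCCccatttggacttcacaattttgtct
Clec4g held 5 matches, Stab2 and Mrc1 6 each and Fcgr2b 4. Of all 32851 promoters of that length, 93.4% held at least 1 match, 33.4% at least 4, 18.0% at least 5 and 8.69% at least 6, so the motif itself is common. Stab1 also held 6. The TATA sequence TATAAA, searched on the strand of the gene, was in none of the 5 and in 7.59% of all promoters. A match describes letters and is not a binding site.

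All 8 genes were highest in endothelial-like cells when the 7 named clusters with over 20 cells in each library were ranked, and the interval of the endothelial level overlapped that of no other cluster ranked. Cells with both endothelial and macrophage gate markers were not removed from the clusters. The dendritic cell-like (6 and 18 cells) and neutrophil-like (7 and 48 cells) clusters were left out of the order for their size. In the 6 dendritic cell-like cells of the library labelled AEG-1DMAC, Stab2 had 21 counts, or 933 CPM (interval 578 to 1427), above its endothelial level of 731 CPM, and 1 count in the other library. The endothelial gate genes Egfl7, Ptprb and Ushbp1 were counted in the same 6 cells too, at 444, 356 and 311 CPM. Stab1 had 4 counts in those 6 cells and Oit3 4 in the 7 neutrophil-like cells, with intervals that reach the endothelial ones. The order below that differed between genes. Macrophage-like cells came second for Stab1 (135 CPM in the library labelled AEG-1DMAC and 226 CPM in the library labelled AEG-1fl/fl, against 445 and 718 CPM in endothelial-like cells), for Stab2 (163 and 131 CPM against 731 and 1283 CPM) and for Mrc1 (533 and 603 CPM against 676 and 873 CPM). In the library labelled AEG-1fl/fl, the macrophage and B cell-like levels of Stab1 and Stab2 did not differ beyond their intervals. Stellate cell-like cells came second for Gpr182 (92.3 and 87.9 CPM against 508 and 786 CPM), for Clec4g (155 and 99.4 CPM against 978 and 892 CPM) and for Lyve1 (44.1 and 69.8 CPM against 286 and 489 CPM), and in the library labelled AEG-1fl/fl the intervals of the last 2 reached those of B cell-like cells. If stellate cell-like cells held endothelial RNA in the proportion of the general endothelial genes, these genes would reach more than was counted. Gpr182 was at 0.77 and 0.50 times that level, Clec4g at 0.66 and 0.51 and Lyve1 at 0.68 and 0.67. That proportion, 43.5% and 39.1% of the endothelial level, depends on the genes chosen. The gate gene Egfl7 gave a lower one, with 77.9 and 114 CPM in stellate cell-like cells against 499 and 879 CPM in the endothelial gate. Whether these genes were counted beyond endothelial RNA there was not tested. For Oit3 (520 and 580 CPM in endothelial-like cells), stellate cell-like cells at 74.6 CPM were second in the library labelled AEG-1DMAC and B cell-like cells at 66.1 CPM in the other, within the intervals of their neighbors. Fcgr2b, also the Fc receptor of B cells, stood at 725 and 1069 CPM in endothelial-like cells, at 89.6 and 247 CPM in B cell-like cells and at 131 and 176 CPM in macrophage-like cells. Hepatocyte-like cells had between 8.75 CPM (Oit3, library labelled AEG-1fl/fl) and 29.6 CPM (Clec4g, library labelled AEG-1DMAC), and were last or overlapped the last cluster for all 8 genes in both libraries.

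**Figure D1:**
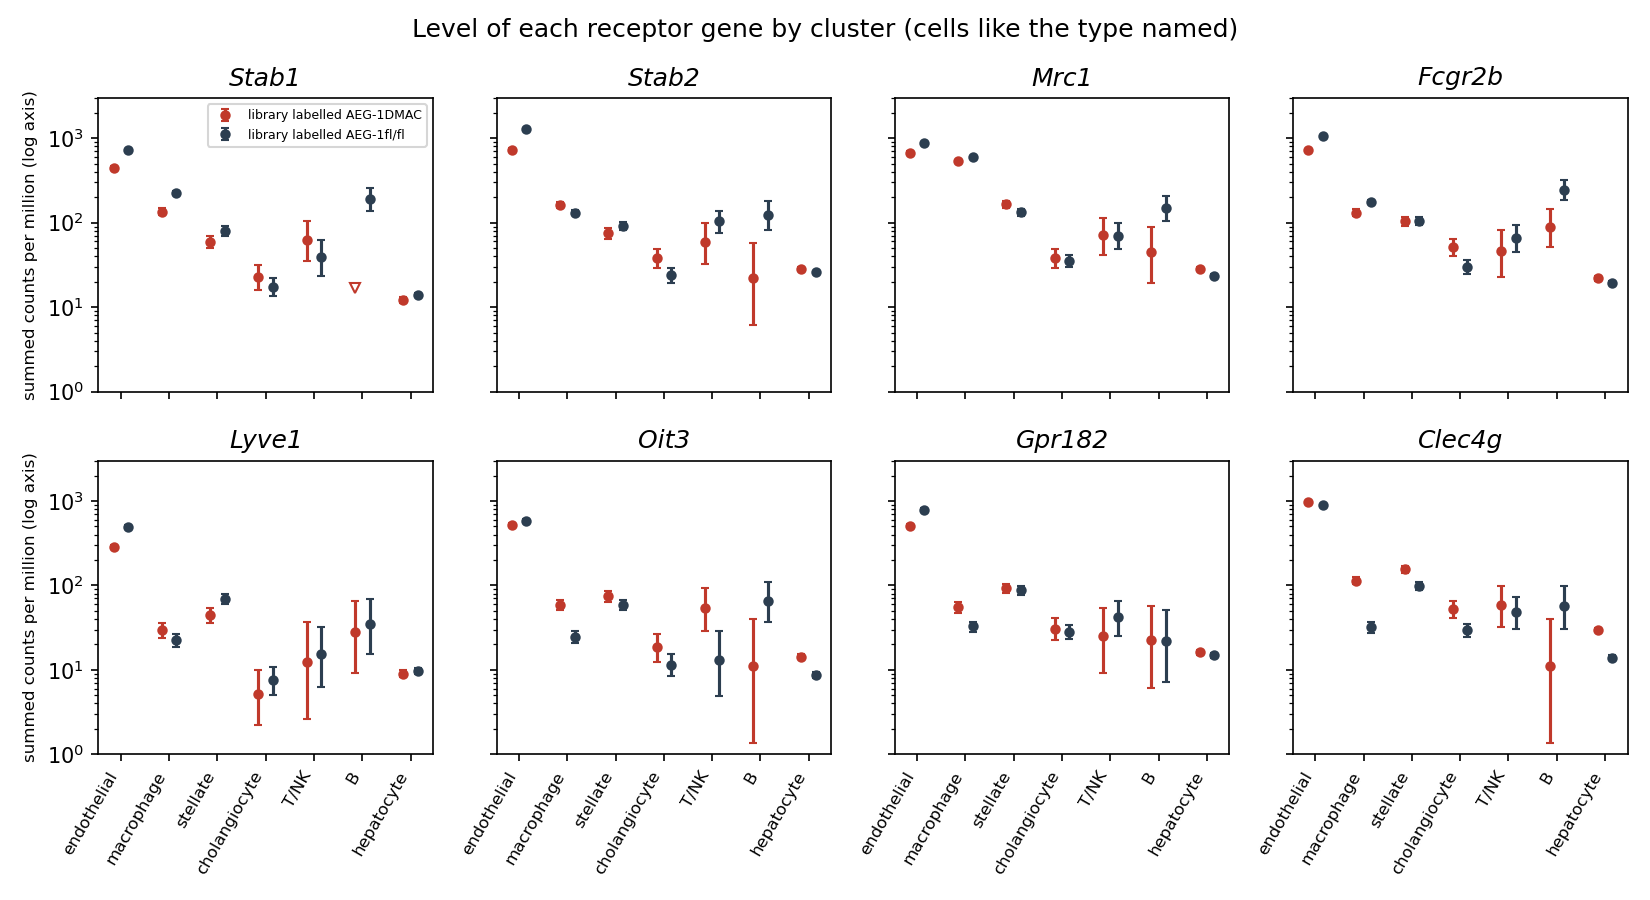
Level of each receptor gene in the 7 named clusters with over 20 cells in each library, as summed CPM on a log axis, with 95% Poisson intervals of counting error and 1 library per label. The endothelial-like point is the highest in each panel, and Mrc1 is the gene whose macrophage-like level (533 and 603 CPM) comes nearest to it. The open triangle marks Stab1 at 0 counts in 43 B cell-like cells, drawn at the limit of 16.8 CPM that a count of 0 allows.

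Endothelial cells were then set against macrophages by the gates, and 7 of the 8 genes exceeded the macrophage level by a log2 ratio of 1 or more in each library. Of all genes with at least 20 counts, 7.15% did so in the library labelled AEG-1DMAC and 12.6% in the library labelled AEG-1fl/fl. The genes fell into those largely confined to the endothelial gate and those also counted in macrophages.

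Lyve1, Oit3, Gpr182 and Clec4g formed the first group. Lyve1 had 150 CPM in the endothelial and 11.2 CPM in the macrophage gate of the library labelled AEG-1DMAC, and 266 and 8.33 CPM in that labelled AEG-1fl/fl (log2 ratios of 3.74, interval 3.29 to 4.22, and 4.99, interval 4.65 to 5.36). Oit3 had 286 against 17.8 CPM and 309 against 11.5 CPM (4.01, 3.65 to 4.38, and 4.75, 4.46 to 5.06). Gpr182 had 277 against 19.7 CPM and 450 against 13.3 CPM (3.81, 3.48 to 4.17, and 5.08, 4.81 to 5.37). Clec4g had 538 against 30.1 CPM and 495 against 14.7 CPM (4.16, 3.89 to 4.45, and 5.07, 4.81 to 5.34). All 4 ratios were larger in the library labelled AEG-1fl/fl. If the macrophage gate held endothelial RNA in the proportion set by the 23 general endothelial genes (12.2% of the endothelial level in the library labelled AEG-1DMAC and 6.69% in the other), the 4 genes would reach more than was counted: Clec4g was at 0.46 and 0.44 times that level, Oit3 at 0.51 and 0.55, Gpr182 at 0.58 and 0.44, and Lyve1 at 0.62 and 0.47.

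Stab1, Stab2, Mrc1 and Fcgr2b exceeded that level, which depends on the list of endothelial genes used. For Mrc1 the direction depended on how the cells were taken. By the gates it had no endothelial excess, with 361 CPM in the endothelial and 453 CPM in the macrophage gate of the library labelled AEG-1DMAC and 455 and 500 CPM in the other (log2 ratios of -0.33, interval -0.41 to -0.24, and -0.14, interval -0.20 to -0.07). It stood at 10.3 and 16.4 times the level that endothelial RNA would give in macrophages. Stab1 had 228 against 95.2 CPM and 395 against 176 CPM (1.26, 1.09 to 1.43, and 1.16, 1.07 to 1.26), which was 3.44 and 6.68 times that level. Fcgr2b had 397 against 83.2 CPM and 579 against 128 CPM (2.26, 2.09 to 2.43, and 2.18, 2.08 to 2.28), at 1.72 and 3.31 times. Stab2 had 396 against 113 CPM and 707 against 94.6 CPM (1.81, 1.66 to 1.96, and 2.90, 2.79 to 3.01), at 2.35 and 2.0 times. Mrc1 turned to an endothelial excess under 6 of the 10 alternatives in each library. The alternatives reuse the same cells and counts, so their number does not weigh for either sign. The excess was 0.34 and 0.53 on the log2 scale with clusters in place of gates, 0.23 and 0.51 with gate and cluster together, 0.07 and 0.14 with a stricter gate, 0.56 and 0.88 as a mean over cells, 0.06 and 0.40 without the cells above the 95th percentile of counts, and 1.67 and 0.95 with the hepatocyte profile subtracted. The other 7 genes stayed above 1 under all 10 alternatives.

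**Figure D2:**
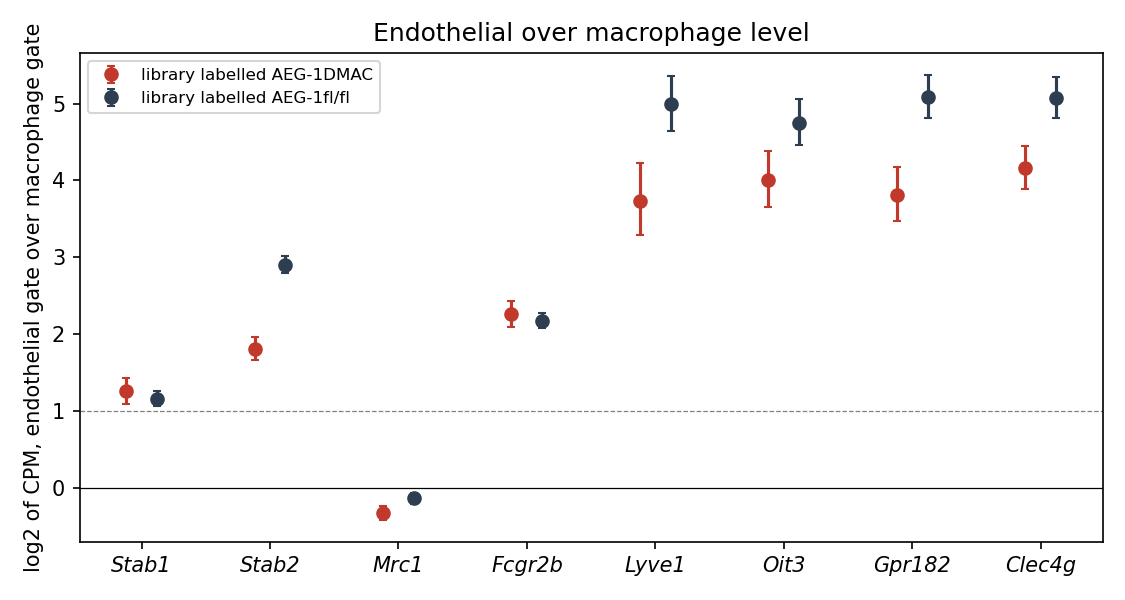
Log2 ratio of CPM in the endothelial gate over CPM in the macrophage gate for each gene and library, with exact 95% intervals of counting error. Mrc1 lies below 0 in both libraries (-0.33 and -0.14), Stab1 just above the dashed line at 1 (1.26 and 1.16), and Lyve1, Oit3, Gpr182 and Clec4g between 3.74 and 5.08.

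In single cells the receptors were found together. After each cell was thinned to 1500 counts, the median endothelial-gated cell had counts for 4 of the 8 genes in the library labelled AEG-1DMAC and 5 in the library labelled AEG-1fl/fl, and 44.1% and 59.6% of cells had counts for 5 or more. Of the macrophage-gated cells 0 of 307 (which allows a share of up to 0.977%) and 2 of 771 did, and of hepatocyte-like cells 2 of 1157 and 4 of 1283. All 8 genes were counted in 26 and 57 endothelial-gated cells and in none of the macrophage-gated or hepatocyte-like cells. Clec4g had a count in 62.8% (interval 57.8 to 67.6) and 63.3% (58.7 to 67.7) of thinned endothelial-gated cells, against a background of 4.75% and 2.49% of hepatocyte-like cells. Stab1 had a count in 44.6% (39.6 to 49.7) and 61.8% (57.2 to 66.2), against 2.33% and 2.26%. Mrc1 was the gene found in many cells of both gates, with 55.6% and 64.1% of endothelial-gated and 41.4% and 45.1% of macrophage-gated cells. Lyve1 was found least often in endothelial-gated cells, in 27.7% and 37.8%. Before thinning, the endothelial-gated shares were 89.2% and 85.5% for Clec4g, 84.6% and 86.3% for Stab1, 87.2% and 85.5% for Mrc1 and 60.2% and 65.8% for Lyve1, at median depths of 6466 and 4545 counts per cell, with 22717 and 20253 in hepatocyte-like cells. Thinning left out 25 and 26 endothelial-gated cells of lower depth.

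Between the libraries, 7 of the 8 genes had a lower CPM in the endothelial gate of the library labelled AEG-1DMAC, and none passed a log2 ratio of 1 in either direction, a size reached by 6.04% of 12089 genes in the lower and 0.778% in the higher direction. The general endothelial genes were lower too, all 23 of them, with a median log2 ratio of -0.57, against -0.62 for the 8 genes and -0.25 for all genes. The level of hepatocyte genes moved with this (89.5% and 72.6% of the hepatocyte level), and the direction of the comparison depended on it: when each library's hepatocyte profile was subtracted, all 8 genes stood higher in the library labelled AEG-1DMAC, by 0.49 (Stab2) to 1.46 (Clec4g) on the log2 scale, and so did the general endothelial genes, with a median of 0.77. That subtraction also divides by the counts left. Genes scarce in hepatocytes therefore rise together, by an amount set mostly by the hepatocyte share of each library, and the turn is not a second measurement. With the 40 hepatocyte genes left out of the denominator instead, each of the 8 genes kept its sign. Those 40 genes held 185667 and 146638 CPM of the gate, so leaving them out shifts all ratios alike by a small amount. Other hepatocyte RNA stays in the denominator, so the kept signs do not bear on the direction. The values below therefore describe shares of all counts, and their sign does not say which library's endothelial cells held more receptor RNA. In such sums, fewer receptor-bearing cells and less RNA per cell cannot be told apart.

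Stab2 had 396 CPM (interval 383 to 409) in the library labelled AEG-1DMAC and 707 CPM (687 to 728) in the library labelled AEG-1fl/fl, a log2 ratio of -0.84 that was below those of all 23 endothelial genes. Lyve1 followed with 150 and 266 CPM (-0.83), and Stab1 with 228 and 395 CPM (-0.79). Gpr182 had 277 and 450 CPM (-0.70) and Fcgr2b 397 and 579 CPM (-0.54), both inside the range of the endothelial genes. Mrc1 had 361 and 455 CPM (-0.33) and lay above 21 of the 23. Oit3 had 286 CPM (275 to 297) and 309 CPM (296 to 323), a ratio of -0.12 above 22 of the 23. Clec4g was the only one of the 8 with the higher value in the library labelled AEG-1DMAC, 538 CPM (523 to 553) against 495 CPM (479 to 512), and its ratio of 0.12 (0.05 to 0.18) lay above all 23. In the endothelial-like cluster the ratios ran from -0.81 (Stab2) to 0.13 (Clec4g), and 0 of 8 passed 1, as against 4.25% of 11376 genes lower and 1.43% higher. With the cells above the 95th percentile of counts left out, Clec4g turned to -0.09 and Stab2 reached -1.03, and with a stricter gate Oit3 turned to 0.04. Among the gated cells inside the endothelial-like cluster 7 of 8 genes were lower in the library labelled AEG-1DMAC (median -0.68), and among those outside it 5 of 8 were (median -0.26), with Clec4g at 0.49 (0.35 to 0.63), Oit3 at 0.36 (0.18 to 0.55) and Mrc1 at 0.05 (-0.11 to 0.20). Genes of macrophages were also counted in the endothelial gate (12 of 12 markers, 1310 and 1119 CPM in sum, against 12827 and 14815 CPM in the macrophage gate), and a list of 10 lipid-associated macrophage genes was lower there in the library labelled AEG-1DMAC (431 and 986 CPM). Their part in the values of Stab1, Stab2, Mrc1 and Fcgr2b was not tested.

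**Figure D3:**
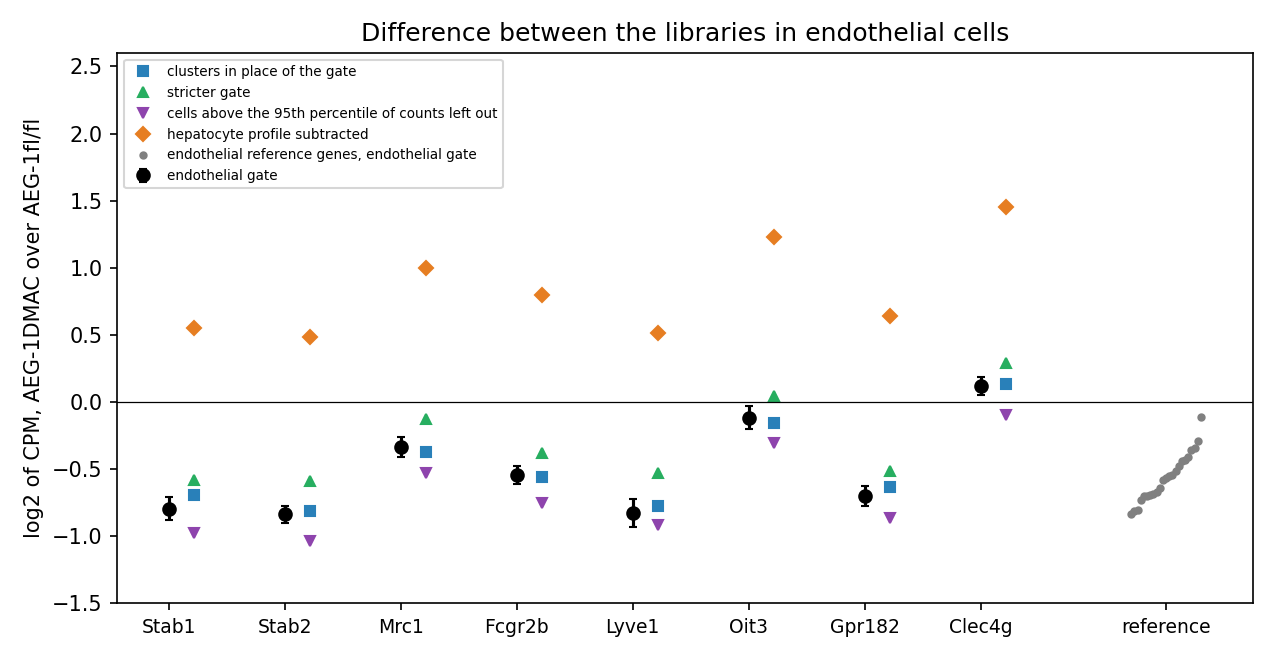
Log2 ratio of endothelial CPM, library labelled AEG-1DMAC over library labelled AEG-1fl/fl, for each receptor gene and for 23 general endothelial genes (grey). Black points have 95% intervals of counting error, and colored points show 4 other settings. Subtraction of the hepatocyte profile puts all 8 genes above 0, through a shift set mostly by the hepatocyte share of each library. In each setting Clec4g is the highest and Oit3 the next.

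What did not depend on the total was the ratio of one receptor to another within the same cells. Clec4g and Stab2 had the highest and the lowest library ratio of the 8, so the pair was chosen on these values and their ratio is a description. Clec4g had 4804 counts and Stab2 3538 in the endothelial gate of the library labelled AEG-1DMAC, a ratio of 1.36 (interval 1.30 to 1.42), and 3307 and 4722 counts in that of the library labelled AEG-1fl/fl, a ratio of 0.70 (0.67 to 0.73). The change was 0.96 on the log2 scale and ran from 0.80 to 0.97 over 10 alternatives. It was 0.95 in the gated cells inside the endothelial-like cluster and 0.94 in those outside it. It was also present in cells of other kinds, in which Clec4g and Stab2 were low: the ratios were 1.04 and 0.54 in hepatocyte-like cells, 2.05 and 1.09 in stellate cell-like cells and 1.17 and 0.56 in all ungated cells. These are not separate observations. Relative to endothelial RNA in the proportion of the general endothelial genes, hepatocyte-like cells held Clec4g at 1.03 and 0.90 times and Stab2 at 1.35 and 1.16 times. Stellate cell-like cells held 0.66 and 0.51 times for Clec4g and 0.44 and 0.33 times for Stab2. All these multiples depend on the list of endothelial genes used. Oit3 over Stab2 differed in the same direction (0.72 and 0.44 in the endothelial gate), and so did Clec4g over Gpr182 (1.94 and 1.10). Oit3 over Lyve1 was 1.91 and 1.16. The ratio of Stab1 to Stab2 was close in both libraries, 0.57 (0.54 to 0.61) and 0.56 (0.53 to 0.59). Clec4g made up 20.4% of all counts of the 8 genes in the endothelial gate of the library labelled AEG-1DMAC and 13.5% in the other, and Stab2 15.1% and 19.3%.

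**Figure D4:**
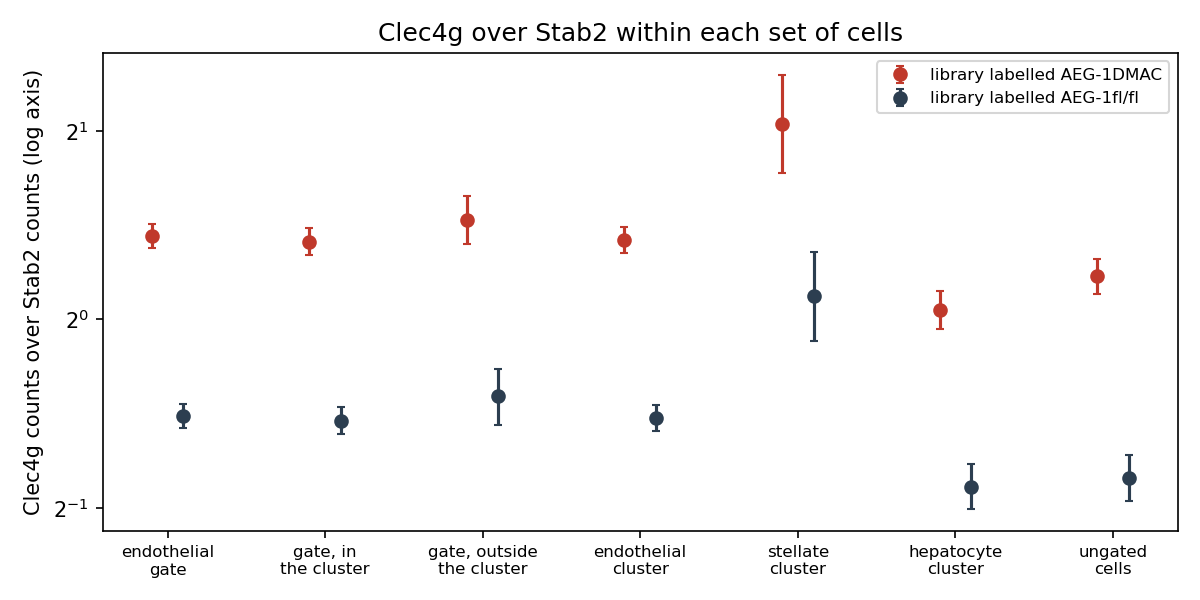
Counts of Clec4g over counts of Stab2 within 7 sets of cells, on a log axis, with exact 95% intervals of counting error. The library labelled AEG-1DMAC lies higher in each set, from 1.04 in hepatocyte-like to 2.05 in stellate cell-like cells, against 0.54 to 1.09 in the library labelled AEG-1fl/fl. The sets come from the same libraries and partly share cells, so they are not separate observations. Whether the counts outside the endothelial sets are stray endothelial RNA was not tested.

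In the macrophage gate the order was different. Stab1 had 95.2 CPM (interval 85.5 to 106) in the library labelled AEG-1DMAC and 176 CPM (168 to 186) in the library labelled AEG-1fl/fl, a log2 ratio of -0.89. Fcgr2b had 83.2 CPM (74.1 to 93.1) and 128 CPM (120 to 136), a ratio of -0.62. Mrc1 had 453 and 500 CPM (-0.14) and Stab2 113 and 94.6 CPM (0.26, interval 0.09 to 0.43). The 4 genes of the endothelial group were low there and lay higher in the library labelled AEG-1DMAC, by 0.43 (Lyve1, interval -0.17 to 1.01) to 1.03 (Clec4g, 0.65 to 1.41), as did the general endothelial genes, with a median of 0.58. Clec4g was thus the 1 gene of 8 past a log2 ratio of 1, on 110 and 122 counts, as against 1.91% of 12031 genes higher and 3.46% lower. Over the alternatives, Stab1 ran from -0.96 to -0.46, Fcgr2b from -0.69 to -0.33 and Stab2 from 0.16 to 0.65, while Mrc1 ran from -0.18 to 0.27 and changed sign.

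Receptor levels also differed along macrophage state. Macrophage-gated cells were split in each library into 3 bins of equal size by the share of 10 lipid-associated genes (such as Gpnmb, Trem2 and Spp1) in their sum with 9 genes of resident Kupffer cells (such as Clec4f, Timd4 and Vsig4), a range of a score and not a cell type. None of the 8 receptor genes is on these lists. Mrc1 had 765 CPM in the bin with the lowest share and 425 and 280 CPM in the middle and highest bins in the library labelled AEG-1DMAC, and 840, 439 and 305 CPM in the library labelled AEG-1fl/fl (log2 of highest over lowest -1.45 and -1.46). Stab2 was ordered alike, with 182, 114 and 68.9 CPM and 184, 81.0 and 37.0 CPM (-1.40 and -2.32). Fcgr2b went the other way, with 46.4, 41.2 and 159 CPM and 42.1, 94.1 and 237 CPM (1.78 and 2.49). Stab1 varied least of the 4, with 96.2, 89.2 and 104 CPM and 152, 182 and 200 CPM (0.12, interval -0.31 to 0.54, and 0.39, 0.19 to 0.60), and was lower in the library labelled AEG-1DMAC in each bin. General endothelial genes were also lower in the highest than in the lowest bin (338 and 584 CPM, and 231 and 402 CPM), and hepatocyte genes were too. Over the whole macrophage gate the lipid-associated genes made up 15.6% of the counts of both lists in the library labelled AEG-1DMAC and 39.1% in the library labelled AEG-1fl/fl, so the bins do not cover the same range. In the lowest bin, Fcgr2b (46.4 and 42.1 CPM) and Stab2 (182 and 184 CPM) did not differ between the libraries beyond their intervals. The part of state in the library differences was not tested.

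**Figure D5:**
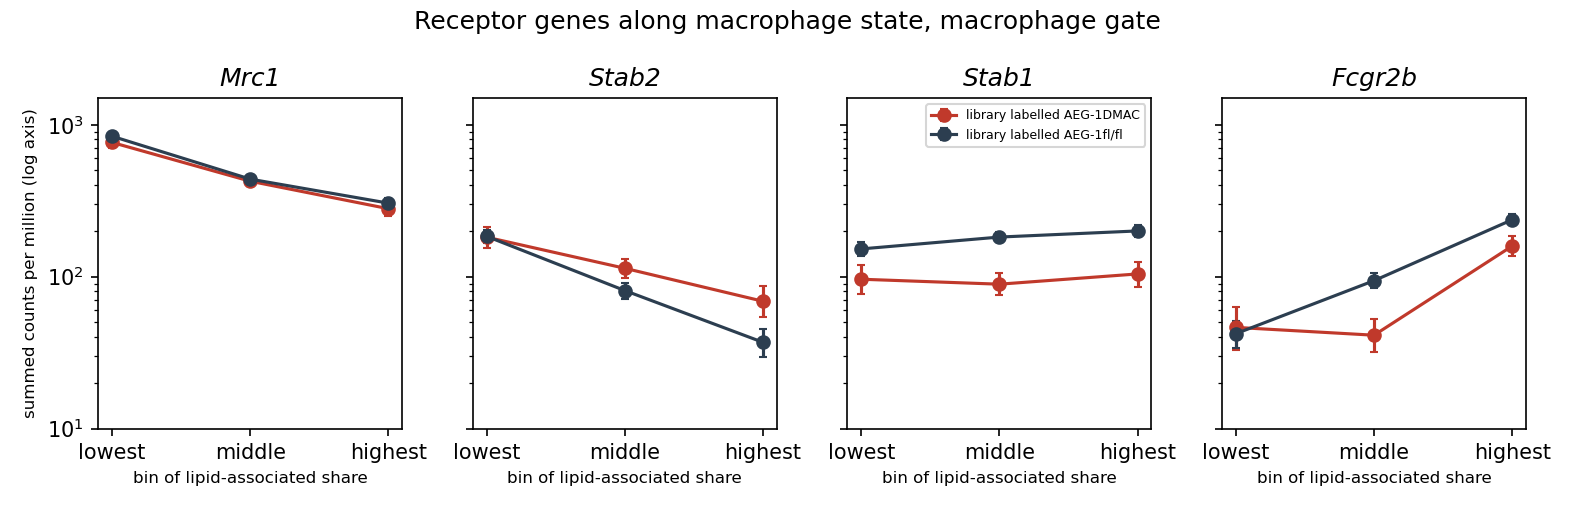
CPM of Mrc1, Stab2, Stab1 and Fcgr2b on a log axis in macrophage-gated cells split into 3 bins by their lipid-associated share, with 95% Poisson intervals. Mrc1 and Stab2 are lower and Fcgr2b is higher in the highest than in the lowest bin in both libraries, and Stab1 lies between 89.2 and 104 CPM in one and between 152 and 200 CPM in the other.

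Endothelial-gated cells were also split by zone, according to whether periportal genes (such as Dll4 and Efnb2) or pericentral genes (such as Wnt2, Rspo3 and Kit) had more counts. The library labelled AEG-1DMAC had 303 periportal and 91 pericentral cells and the library labelled AEG-1fl/fl 412 and 59. In the endothelial gate the periportal genes had 793 and 1396 CPM in sum and the pericentral genes 330 and 358 CPM. The cut between the zones therefore need not fall at the same place in both libraries. Clec4g had 537 and 561 CPM in periportal and pericentral cells of the library labelled AEG-1DMAC (log2 of pericentral over periportal 0.06) and 554 and 206 CPM in the library labelled AEG-1fl/fl (-1.43). Mrc1 had 357 and 384 CPM (0.10) and 498 and 227 CPM (-1.13), and Gpr182 281 and 268 CPM (-0.07) and 494 and 245 CPM (-1.01). In the library labelled AEG-1fl/fl all 8 genes were lower in pericentral cells, with a median of -0.91, and in the other 7 of 8 were higher, with a median of 0.13. In the library labelled AEG-1DMAC, the intervals of Lyve1 (-0.05 to 0.36), Mrc1 (-0.03 to 0.24), Fcgr2b (-0.03 to 0.23) and Clec4g (-0.05 to 0.17) included 0. Within the endothelial-like cluster (225 and 75 cells, and 319 and 41 cells) the medians were -0.27 and -0.64, so the opposite direction was not kept there. General endothelial genes had 3179 and 5502 CPM in periportal and pericentral cells of the library labelled AEG-1DMAC and 5055 and 4663 CPM in the other. Relative to these genes, all 8 receptor genes had log2 values below 0 for pericentral over periportal cells in both libraries. The log2 values ran from -0.03 (Stab1) to -0.86 (Gpr182) in the library labelled AEG-1DMAC. For Stab1 this was within counting error of 0, since its unadjusted value of 0.76 had an interval of 0.61 to 0.91. In the other they ran from -0.23 (Oit3) to -1.31 (Clec4g). The hepatocyte genes differed between the zones as well. The part of general endothelial and hepatocyte genes in the zone values was not tested.

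Other genes of the same biology were read in the endothelial gate, from lists chosen with earlier results of these data known, with ratios as the library labelled AEG-1DMAC over the library labelled AEG-1fl/fl. Over all genes 6.04% were lower and 0.778% higher there by 1 or more, with a median of -0.25. Of 15 genes of sinusoidal identity none passed a log2 ratio of 1, with a median of -0.29 and extremes of -0.73 (Meis2, a homeobox factor) and 0.30 (Plxnc1, a semaphorin receptor). Of 11 genes of capillary and vascular character 4 were lower by 1 or more and none higher, with a median of -0.75. Col15a1, a basement membrane collagen, had 5.37 and 27.0 CPM (-2.33), Esm1, a marker of endothelial tip cells, had 39.9 and 150 CPM (-1.91), and Ly6a had 143 and 188 CPM (-0.40). Of 21 other scavenger receptors and lectins with enough counts 3 were higher and 3 lower by 1 or more, with a median of -0.19. The higher ones included Marco, a macrophage scavenger receptor (43.2 and 11.4 CPM, 1.93), which had 192 and 55.2 CPM in the macrophage gate, and Cd209b, a C-type lectin (8.17 and 2.25 CPM, 1.86), on 73 and 15 counts. The lower ones included Mrc2 (7.73 and 22.3 CPM, -1.53), an endocytic collagen receptor, and Scarf1 (14.2 and 28.9 CPM, -1.02). None of 5 other Fc receptor genes, 20 genes of endocytosis and lysosomes or 5 genes of hyaluronan turnover passed 1 in either direction, with medians of -0.27, -0.17 and -0.27. Among them Cemip2, a cell surface hyaluronidase, had 229 and 375 CPM (-0.71), Hyal2 149 and 151 CPM (-0.03) and Cltb, a clathrin light chain, 161 and 131 CPM (0.30). Of 7 ligands of the receptors 1 was higher by 1 or more and none lower. Sparc, a ligand of Stab1, had 668 and 1099.7 CPM (-0.72), Gdf15, which stabilins clear, 52.9 and 94.2 CPM (-0.83), and Cxcl12, a ligand of Gpr182, 265 and 293 CPM (-0.15).

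The genes most like each receptor across 27 combinations of cell set and library were mostly endothelial. As a description, with points that share libraries and free RNA, Oit3 was followed most closely by Dnase1l3, a secreted DNase (Pearson r of log2(CPM + 1) 0.98), Clec4g by Adgrf5 (0.98), Gpr182 by Gpihbp1 (0.96), which anchors lipoprotein lipase, and Lyve1 by the endothelial factor Sox18 (0.96). Stab1 was followed by Arhgap31 (0.95), Fcgr2b by Plxnd1 (0.95) and Stab2 by Zmynd15 (0.93). Mrc1 was the one whose nearest gene was a scavenger receptor of macrophages, Msr1 (0.98). Among the 8 themselves the coefficients ran from 0.71 (Lyve1 and Stab1) to 0.93 (Clec4g and Oit3).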

How the data were processed

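Single-cell gene expression was measured in fixed liver cells with the 10x Genomics probe kit for the mouse transcriptome. The values as deposited by the authors are unnormalized UMI counts, 1 matrix a library. The submitters' processing notes name Cell Ranger 7.1.0, Seurat and mm10. The other experiments of the study were not analysed here.

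Cells were filtered by the study's thresholds on detected genes and mitochondrial counts. Its removal of genes found in few cells was applied to the clustering, over both libraries together, and not to the summed counts. More cells were kept than the study gives. Counts were log-normalized and clustered in Seurat 5.3.0 (R 4.3.3) with 2000 variable genes, anchor integration, 50 principal components and a resolution of 0.4, which gave 15 clusters. The 8 receptor genes and 6 gate genes were left out of the variable genes. A cluster was named from markers, and 2 clusters stayed unnamed. No doublet caller was run. Cells with both marker sets were left out of the gates but stayed in the clusters. Clec4g had 114 and 31.8 CPM in the macrophage-like clusters of the libraries labelled AEG-1DMAC and AEG-1fl/fl. In the macrophage gate it had 30.1 and 14.7 CPM. Counts were summed per library and set of cells (Python 3.11.15, NumPy 2.4.6, SciPy 1.17.1, pandas 2.3.3, figures with matplotlib 3.10.9). CPM has exact Poisson intervals and ratios have Clopper-Pearson intervals from both counts given their sum. The count of 0 was taken to allow 3. Genes with at least 20 summed counts were used. To subtract hepatocyte RNA, the profile of hepatocyte-like cells was scaled to a list of 40 hepatocyte genes. The ratio with its interval was tested on simulated data. Other gates, filters, denominators and thinning depths were tried.

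The 8 genes, the lists and the settings were chosen with earlier results of these data known. Besides the 8 genes, the text names for each the gene whose levels correlate most with it, among the top 3 by the rule, and in each list genes among the 2 highest and 2 lowest ratios with at least 50 counts. Mmrn2 and Nos3 of the endothelial list were not analysed here.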

Additional observations from a re-analysis of the deposited data

Results flagged for a closer look

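Several receptor genes differed in direction between the endothelial and the macrophage gate, with intervals that excluded 0 in both. As log2 ratios of the library labelled AEG-1DMAC over the library labelled AEG-1fl/fl, Stab2 was at -0.84 in the endothelial and 0.26 in the macrophage gate, Oit3 at -0.12 and 0.63, and Gpr182 at -0.70 and 0.57. The difference between the gates was not tested, with 1 library per label. The general endothelial genes moved alike, with medians of -0.57 and 0.58, and with the hepatocyte profile subtracted all 3 genes were higher in the endothelial gate as well. That subtraction raises genes scarce in hepatocytes together, by an amount set mostly by the hepatocyte share of each library.

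Along the endothelial zones, 3 genes went in opposite directions in the libraries with intervals that excluded 0. As log2 of pericentral over periportal cells, Stab1 was at 0.76 in the library labelled AEG-1DMAC and -0.37 in the library labelled AEG-1fl/fl, Stab2 at 0.27 and -1.03, and Oit3 at 0.58 and -0.35. This difference was not tested either, and the cut between the zones need not fall at the same place in both libraries. Relative to the general endothelial genes, all 3 had values below 0 in both libraries, with Stab1 in the library labelled AEG-1DMAC within counting error of 0. Stab1 was then at -0.03 and -0.25, Stab2 at -0.52 and -0.92, and Oit3 at -0.21 and -0.23. In the endothelial-like cluster alone, Stab1 was at 0.39 and -0.28, Oit3 at 0.26 and -0.18, and Stab2 at -0.07 and -0.76.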

How the results depend on the processing

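With 1 library per label and molecules counted once, depth and cell number limit only the counting error, and the spread between mice is not known. No paired analysis was possible because each label has 1 library. The count of 7 of 8 genes with an endothelial over macrophage ratio of 1 or more was 7 or 8 under all 10 alternatives in both libraries. The median ratio of the 8 genes between the libraries in the endothelial gate (-0.62) was -0.45 with a stricter gate, -0.81 with cells above the 95th percentile of counts left out, -0.055 relative to the median of the general endothelial genes and 0.72 with the hepatocyte profile subtracted. The number of genes lower in the library labelled AEG-1DMAC (7) was 4 relative to the general endothelial genes and 0 with that subtraction, which removes most counts of the gate. The change of Clec4g over Stab2 (0.96) was 0.80 as a mean over cells. Single ratios in the endothelial gate changed sign in 12 of 88 alternatives and in the macrophage gate in 2 of 80. The median share of endothelial-gated cells with a count was 52.4% and 62.5% at 1500 counts and 62.7% and 71.0% at 3000. A split of macrophage state into 2 bins in place of 3 gave -0.92 and -1.46 for Stab2, -1.10 and -0.96 for Mrc1 and 1.63 and 2.04 for Fcgr2b, and Stab1 changed sign in the library labelled AEG-1DMAC (from 0.12 to -0.081). The zone medians of 0.13 and -0.91 were -0.27 and -0.64 in the endothelial-like cluster, a setting chosen after seeing the data, as was that of gated cells inside the like-named cluster. With at least 50 counts, 0 ligands were higher by 1 or more. For the settings that moved a value, the cause was not tested.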

Other observations

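The receptor genes were also counted in 2 clusters that stayed unnamed. In the cluster led by proliferation genes (45 and 100 cells in the libraries labelled AEG-1DMAC and AEG-1fl/fl), Mrc1 had 460 and 573 CPM, Stab2 453 and 273 CPM, Fcgr2b 369 and 245 CPM and Stab1 186 and 216 CPM, while Lyve1 had 138 and 49.8 CPM. In the other, led by Marco and hemoglobin genes over a hepatocyte background (252 and 199 cells), Clec4g had 103 and 40.4 CPM, Mrc1 90.6 and 95.6 CPM and Oit3 46.6 and 32.5 CPM.

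In B cell-like cells (43 and 61 cells), Fcgr2b had 16 and 56 counts, or 89.6 CPM (interval 51.2 to 146) and 247 CPM (186 to 321). After thinning to 1500 counts, 14.7% (interval 4.95 to 31.1) and 41.2% (27.6 to 55.8) of these cells had a count of Fcgr2b, and in hepatocyte-like cells 4.75% and 3.27% did. Stab1 had 0 and 43 counts there, Mrc1 8 and 34, and Stab2 4 and 28. The endothelial gate gene Egfl7 had 5 and 24.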
